A study of Rattus norvegicus with 9 samples.

Results

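Receptors for glutamate, GABA and glycine, the main fast transmitters of the brain, were examined in the cerebral cortex of young adult rats. The genes were chosen by name alone, with a rule that took array probes whose platform symbol began like those of ionotropic and metabotropic glutamate receptors, GABA-A and GABA-B receptors, glycine receptors, or the kainate receptor auxiliary subunits Neto1 and Neto2. The rule left out 1 gene of these families by name, which is not analysed here. The name rule also took in Grid2ip, which encodes a protein that binds a delta receptor and is no receptor itself. This gave 37 probes for 36 genes, among 10412 named genes on the array. Grik5 was the gene with 2 probes, and these held the same value on every array, so they were counted once. A probe was called detected on an array where it exceeded that array's 25th percentile. Of the 36 genes, 30 were detected on all 9 arrays, 5 on some of them, and Gabra6, a GABA-A subunit of cerebellar granule cells, on 0 arrays. A further 11830 probes had no gene name here and were not used.

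The animals were 6 male and 3 female Sprague-Dawley rats, and their cortex was taken on postnatal day 60. They were the non-irradiated control group of a study of cortical dysplasia in offspring of irradiated rats, and irradiated animals were not analysed here. Each array held total RNA from the dissected cortex of one animal, a mixture of all cortical cell types. In such bulk tissue, fewer cells of a type and less RNA per cell cannot be told apart. The sexes, and 3 numbers of unstated meaning in the sample titles, were the labelled properties compared. Each number was shared by 3 animals: males 1 and 2 with female 1 carried the lowest, males 3 and 4 with female 2 the middle, and males 5 and 6 with female 3 the highest.

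AMPA and kainate receptors are tetramers that open a cation channel when glutamate binds. NMDA receptors also need a co-agonist and combine the obligatory subunit of Grin1 with subunits of the Grin2 or Grin3 genes. Metabotropic glutamate receptors and GABA-B receptors act through G proteins, and the GABA-B receptor is a dimer of the products of Gabbr1 and Gabbr2. GABA-A and glycine receptors are pentameric chloride channels, and the beta subunit of Glrb anchors glycine receptors to the scaffold gephyrin.

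The 3 arrays of lowest mean intensity (male 2, male 4 and female 2, at 183.6 to 185.4) lay apart from the other 6 (212.2 to 238.8), before any normalization. The lowest title number held 1 of these dim arrays, the middle number 2 and the highest 0. Correlations between arrays were 0.984 to 0.995 on the normalized log2 scale. Cortical identity was checked with markers: the excitatory neuron genes Slc17a7, Neurod6, Camk2a and Nrgn averaged 8.19, 8.53, 8.09 and 13.24 log2 units and were detected on every array. The summed linear level of 5 detected choroid plexus markers was 7532 in male 3 and 1754 in male 2, and 336.9 to 535.9 in the other 7 animals. All levels below are normalized log2 intensities, whose median over all probes was 6.11. A probe's brightness depends on its sequence as well as on its transcript, so levels of different genes are not ranked. The probes of 11 of the 36 genes lay on average below the median probe of their arrays, and changes of such dim probes are understated.

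Promoter windows from RefSeq (build GRCr8, 250 bases before to 50 after the annotated start) were available for 26 of the 36 genes in 27 windows. Capitals mark matches, on either strand, to the NRF1 motif (GCGCA, any base, then GCGC) or the SP1 motif (GGGCGG). The 5 shown are the 3 with an NRF1 match, of Gabrb2, Gabrb1 and Neto2, and those of Grin1 and Gabbr2. The GABA-A beta subunit Gabrb2 was higher on the dim arrays, and Grin1 and Gabbr2 were lower. Gabrb1, a relative of Gabrb2, did not pass that test. The auxiliary subunit Neto2 had the smallest p across title numbers but did not pass after adjustment. Gabra4, Gabrg1 and Neto1 were also higher on the dim arrays, and their windows, not shown, held 0 NRF1 matches. Gria2, higher on the dim arrays as well, had no window to search.
Gabrb2 promoter, chr10:27439543-27439842, plus strand: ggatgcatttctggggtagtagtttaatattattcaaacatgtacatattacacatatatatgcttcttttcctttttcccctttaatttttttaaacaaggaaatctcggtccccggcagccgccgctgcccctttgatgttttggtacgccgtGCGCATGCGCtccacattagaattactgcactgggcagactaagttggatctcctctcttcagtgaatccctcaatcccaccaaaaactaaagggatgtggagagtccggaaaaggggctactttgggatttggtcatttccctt
Gabrb1 promoter, chr14:36902844-36903143, minus strand: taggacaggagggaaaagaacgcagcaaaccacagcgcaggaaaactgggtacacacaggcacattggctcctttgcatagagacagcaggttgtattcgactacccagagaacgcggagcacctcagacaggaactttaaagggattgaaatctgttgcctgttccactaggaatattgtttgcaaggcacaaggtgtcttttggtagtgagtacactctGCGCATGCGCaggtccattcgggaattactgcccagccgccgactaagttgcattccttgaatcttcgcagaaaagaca
Neto2 promoter, chr19:37517305-37517604, plus strand: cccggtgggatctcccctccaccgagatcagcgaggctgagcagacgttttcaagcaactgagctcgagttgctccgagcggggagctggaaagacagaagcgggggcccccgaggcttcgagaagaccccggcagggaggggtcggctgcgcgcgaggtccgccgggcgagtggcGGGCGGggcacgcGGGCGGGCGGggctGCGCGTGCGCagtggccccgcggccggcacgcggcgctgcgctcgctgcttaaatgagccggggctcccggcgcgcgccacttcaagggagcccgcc
Grin1 promoter, chr3:28528705-28529004, minus strand: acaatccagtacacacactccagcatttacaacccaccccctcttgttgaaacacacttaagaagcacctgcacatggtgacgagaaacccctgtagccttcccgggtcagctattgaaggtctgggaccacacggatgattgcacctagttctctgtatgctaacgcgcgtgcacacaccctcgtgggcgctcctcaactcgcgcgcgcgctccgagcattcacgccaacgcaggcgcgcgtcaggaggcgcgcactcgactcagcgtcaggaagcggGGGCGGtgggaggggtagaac
Gabbr2 promoter, chr5:66083646-66083945, minus strand: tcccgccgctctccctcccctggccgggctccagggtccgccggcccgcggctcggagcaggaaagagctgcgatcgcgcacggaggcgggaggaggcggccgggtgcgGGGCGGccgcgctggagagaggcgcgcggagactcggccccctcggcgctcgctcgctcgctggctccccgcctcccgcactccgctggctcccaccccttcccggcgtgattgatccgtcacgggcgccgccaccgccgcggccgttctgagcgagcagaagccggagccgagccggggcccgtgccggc
The NRF1 letters occurred in 3 of the 27 windows (11.1%), those of Gabrb2, Gabrb1 and Neto2, against 4.25% of 33469 promoter windows of the same length. They began 95 bases before the start site in Gabrb2, 29 before it in Gabrb1 and 47 before it in Neto2. The SP1 letters occurred in 14 of the 27 windows (51.9%), against 33.1% of all windows, and 0 matches of one motif overlapped a match of the other. The receptor windows were richer in G and C, with a median of 60.3% against 51.7% over all windows. The windows with an NRF1 match held 44% (Gabrb2), 49.3% (Gabrb1) and 74% (Neto2). The part of base composition in these shares was not tested. These matches describe the sequence and say nothing of binding.

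On the 3 dim arrays, 5 genes were higher and 2 were lower than on the 6 brighter arrays at an adjusted p under 0.05 (limma with sex as a covariate, adjusted over 18531 probes). The 5 higher genes were the GABA-A subunits Gabrb2, Gabra4 and Gabrg1, the AMPA subunit Gria2 and the auxiliary subunit Neto1; the 2 lower genes were the NMDA subunit Grin1 and the GABA-B subunit Gabbr2. These 7 genes were 20% of the 35 tested, against 8.72% of all tested probes. When only probes detected on all 9 arrays were fitted, the same 7 of 30 receptor genes were called, against 12.8% of all such probes. The split between higher and lower depended on the scaling: with no normalization between arrays 1 receptor gene was higher (Gabrb2) and 7 were lower, among them Grin1, Gabbr2 and Gria3, and scaled to the 75th percentile 12 were higher and 4 lower. Of all called probes, 52.4% were higher after quantile normalization, 2.02% with no normalization and 79.0% after scaling to the 75th percentile. The directions below are therefore relative to the other probes of the same array. The comparison was chosen after the data were seen, and the brightness groups are properties of the arrays and not of the study's design.

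Among AMPA receptor genes, Gria2 (probe ILMN_1356417) encodes the subunit that makes the channel nearly impermeable to calcium. It measured 11.49, 11.50 and 11.50 on the dim arrays of male 2, male 4 and female 2, against a lowest, median and highest value of 10.91, 11.11 and 11.13 on the 6 brighter arrays. The 2 groups of arrays did not overlap, and the log2 difference, dim minus brighter, was 0.43 ± 0.06 (SE; 1.34-fold, limma adjusted p = 0.0030). Gria3 measured 9.23, 9.14 and 9.15 on the dim arrays, against 9.05 to 9.13 on the brighter ones. It did not overlap either, but its difference was 0.09 ± 0.04 and did not pass (limma adjusted p = 0.26). Gria4, a subunit of fast interneuron AMPA receptors, differed by 0.06 ± 0.06.

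Among NMDA receptor genes, Grin1 (ILMN_1365529), whose product is present in every NMDA receptor, measured 10.13, 10.34 and 10.36 on the dim arrays of male 2, male 4 and female 2. On the 6 brighter arrays its lowest, median and highest values were 10.61, 10.76 and 10.88. Grin1 was therefore lower on each dim array than on any brighter array, by -0.46 ± 0.07 log2 units (SE; limma adjusted p = 0.0059). The other NMDA genes did not pass. Grin2c, a subunit best known from cerebellum and glia, differed by -0.29 ± 0.09 (limma adjusted p = 0.080). Grin2b, which predominates in the immature forebrain, differed by 0.14 ± 0.09, and Grin2a, which increases with maturation, by 0.06 ± 0.12. Grin2d and Grin3b differed by 0.12 ± 0.05 and 0.03 ± 0.04.

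Of 7 GABA-A receptor genes tested, 3 were higher on the dim arrays (8.72% of all probes were called in either direction), with a median difference of 0.34 over the 7 against 0.0009 over all tested probes. Gabrb2 (ILMN_1372713), a beta subunit, measured 7.17, 7.09 and 7.33 on the dim arrays of male 2, male 4 and female 2, against 6.61, 6.67 and 6.97 as lowest, median and highest on the brighter arrays. Its difference was 0.49 ± 0.06 (SE; 1.40-fold, limma adjusted p = 0.0024). Gabra4 (ILMN_1363867), which with the delta subunit forms extrasynaptic receptors, measured 7.25, 7.18 and 7.45 on those dim arrays and 6.69 to 7.09 on the brighter ones, a difference of 0.43 ± 0.09 (limma adjusted p = 0.016). Gabrg1 (ILMN_1372358) measured 7.04, 7.03 and 6.98 on the dim arrays and 6.50 to 6.85 on the brighter ones, a difference of 0.34 ± 0.08 (limma adjusted p = 0.037). In these 3 genes each dim array exceeded each brighter array, and with no normalization Gabrb2 was the one of the 3 that passed.

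The other GABA-A genes did not pass. Gabrb1 measured 10.05, 10.19 and 10.10 on the dim arrays, and of the brighter arrays male 5, at 10.18, lay among them while the other 5 were at 9.79 or below. Its difference was 0.35 ± 0.11 (SE; limma adjusted p = 0.076). Gabrd, the delta subunit, differed in the opposite direction from its partner Gabra4, with a mean of 8.69 ± 0.05 (SD, n = 3) on the dim arrays and 8.98 ± 0.25 (SD, n = 6) on the brighter ones. That difference of -0.29 ± 0.13 (SE) did not pass (limma adjusted p = 0.23). Gabra5, a subunit of extrasynaptic receptors, differed by 0.07 ± 0.08, and the dim probes of Gabrp, Gabrr2 and Gabrr3 by -0.01, 0.004 and 0.02. Gabra6 measured 5.73 to 5.91 over the 9 animals, below the 25th percentile of each array. Pcp2, the other named cerebellar marker, averaged 5.95 and was detected on 6 of the 9 arrays.

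The 2 subunits of the GABA-B receptor gave different results. Gabbr2 (ILMN_1367247), the subunit that couples to the G protein, measured 10.39, 10.73 and 10.71 on the dim arrays of male 2, male 4 and female 2, against 10.94, 11.02 and 11.22 as lowest, median and highest on the brighter arrays. The groups did not overlap, with male 2 lowest of all, and the difference was -0.43 ± 0.08 (SE; limma adjusted p = 0.012). Gabbr1, which binds GABA, averaged 7.96 ± 0.18 (SD, n = 3) on the dim arrays and 7.98 ± 0.29 (SD, n = 6) on the brighter ones, a difference of -0.02 ± 0.15 (SE). Whether the 2 subunits differ from each other in this respect was not tested.

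Glrb had the largest SD within sex of the receptor genes detected on all arrays, 0.37, against a median of 0.20 for these 30 genes and 0.11 for all 13002 probes detected on every array. It measured 8.22, 7.97 and 8.27 on the dim arrays, and 7.28 to 8.12 on the brighter ones, so the groups overlapped. The difference of 0.49 ± 0.16 (SE) did not pass (limma adjusted p = 0.093). Glra1, an alpha subunit characteristic of spinal cord and brainstem, lay near the median of the arrays and differed by 0.05 ± 0.08.

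Kainate receptor genes did not pass. Grik5, which needs a partner such as the product of Grik2, averaged 7.29 ± 0.09 (SD, n = 3) on the dim arrays and 7.52 ± 0.21 (SD, n = 6) on the brighter ones, a difference of -0.23 ± 0.11 (SE). Grik2 differed by 0.04 ± 0.12, Grik1 by -0.01 ± 0.07, and the dim probes of Grik3 and Grik4 by 0.04 and -0.02. The auxiliary subunit Neto1 (ILMN_1374428), which slows kainate receptor currents, measured 6.68, 6.66 and 6.73 on the dim arrays. These values lay above the 6.24 to 6.54 of the brighter arrays (difference 0.31 ± 0.07, SE, limma adjusted p = 0.026). Neto2 differed by 0.10 ± 0.15. The metabotropic genes did not pass: Grm7, a presynaptic autoreceptor, differed by -0.18 ± 0.07, Grm4 by -0.10 ± 0.07, Grm2 by -0.04 ± 0.12, and Grm5, a postsynaptic receptor coupled to calcium release, by 0.12 ± 0.12. The delta receptor Grid1 and Grid2ip differed by -0.07 and 0.07.

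**Figure D1:**
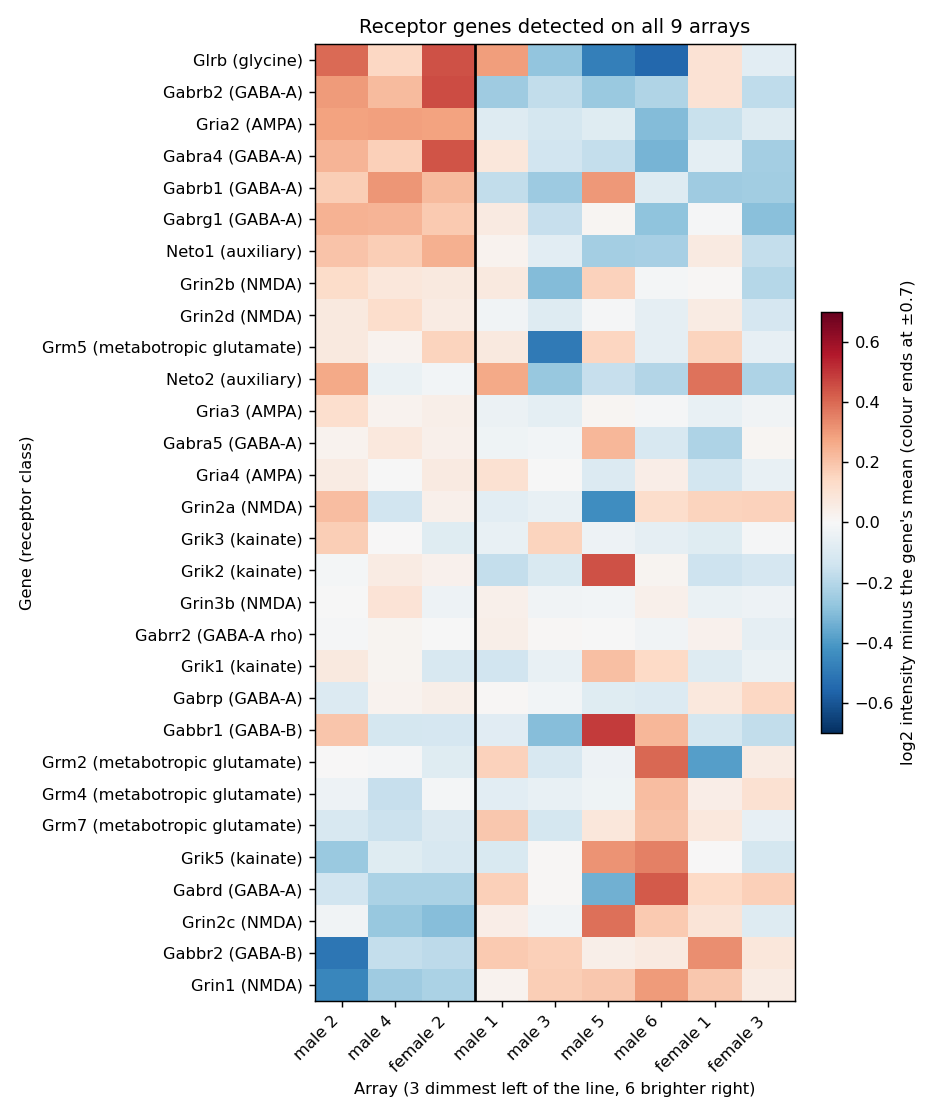
Normalized log2 intensity of the 30 receptor genes detected on all 9 arrays, as the deviation from each gene's mean (colour, log2 units), with the 3 dim arrays left of the black line and the 6 brighter arrays right of it. Genes run from the largest positive to the largest negative difference between these arrays; Gria2, Gabrb2 and Gabra4 are red on all 3 dim arrays, and Grin1 and Gabbr2 are blue on all 3.

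**Figure D2:**
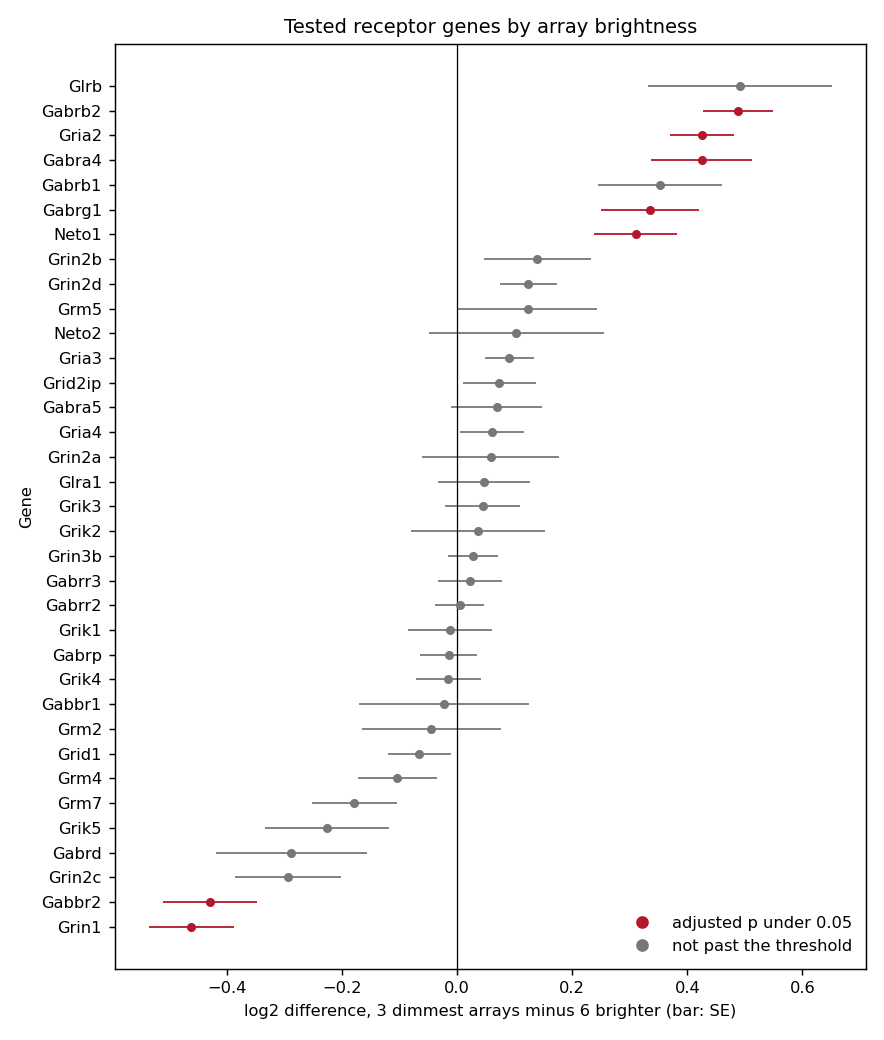
Log2 difference of each of the 35 tested receptor genes, 3 dim arrays minus 6 brighter arrays (point), with its SE (bar); red marks an adjusted p under 0.05. Of the 7 red genes 5 lie above and 2 below 0, and Glrb, in grey, has a similar difference with a wider SE.

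**Figure D3:**
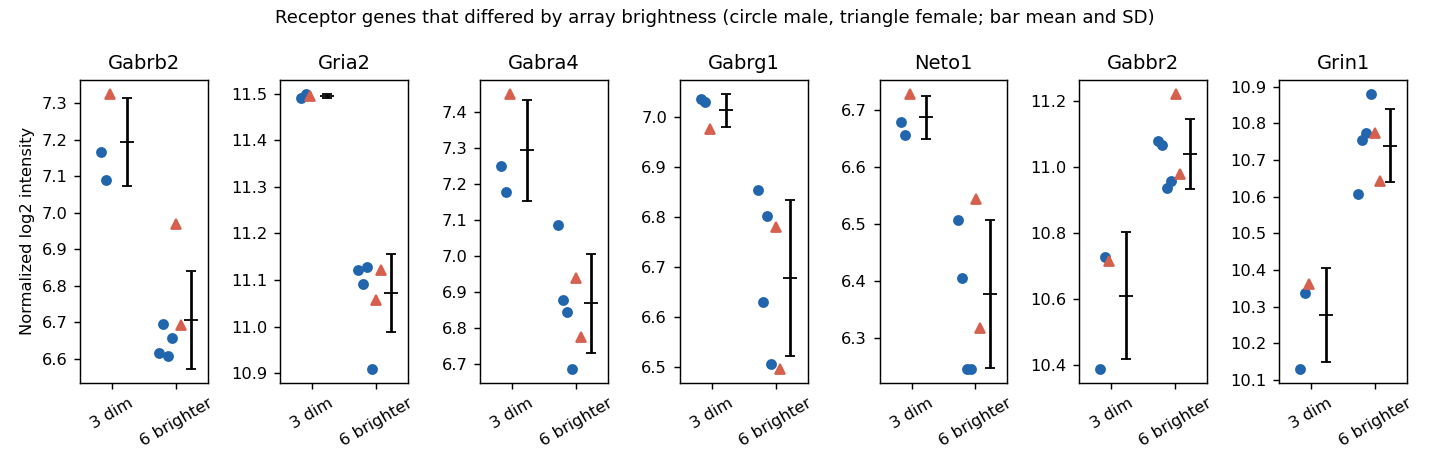
Normalized log2 intensity of the 7 genes that passed, for each array, dim arrays left and brighter arrays right in each panel (circle male, triangle female; black bar mean and SD, n = 3 and n = 6). The vertical axes differ between panels, and in each panel the dim and brighter arrays do not overlap.

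Without overlap between dim and brighter arrays were 9 of the 30 receptor genes detected on all arrays (30%), the 7 above with Gria3 and Grin2d, against 18.6% of all such probes. Gabrb2 and Grin1 passed under each of 18 alternatives. With title number as a covariate, 4 of the 7 passed (Gria2, Grin1, Gabrb2 and Gabbr2; 2.98% of all probes passed), and without male 2 or without female 2, Gria2, Grin1 and Gabrb2 passed. With no normalization, Gria2 differed by 0.07 (limma adjusted p = 0.67), Gabra4 by 0.22, Gabrg1 by 0.16 and Neto1 by 0.19, and these 4 did not pass. Summed linear levels of the markers of several cell types are given beside these results. The 5 endothelial markers summed to 2412 to 2700 on the dim arrays and 1897 to 2374 on the brighter ones, and 3 of 4 listed oligodendrocyte precursor markers to 584.8 to 600.4 and 625.7 to 710.6. These sums did not overlap, but singly 1 of the 5 endothelial and 0 of the 3 precursor markers passed the adjusted threshold. Sums of the 4 measured astrocyte markers (9236 to 11094 on the dim arrays and 6946 to 10059 on the brighter ones) and of the 4 excitatory neuron markers (11057 to 11543 and 8603 to 11565) overlapped. The excitatory sum is mostly Nrgn, which averaged 13.24 log2 units against 8.09 to 8.53 for the others, so it says little of those. Singly, 0 of the 4 excitatory neuron markers passed. The 5 measured interneuron markers summed to 4111 to 5111 on the dim arrays and 4472 to 4802 on the brighter ones. The 5 measured myelin markers summed to 7327 to 9334 and 3374 to 9212. These sums overlapped too, and singly 1 of the 5 interneuron and 1 of the 5 myelin markers passed. All of these markers were detected, and their part in the receptor differences was not tested.

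Title numbers separated Neto2 most clearly. Neto2 (ILMN_1365424), the second kainate receptor auxiliary subunit, measured 7.36 in males 1 and 2 and 7.48 in female 1 under the lowest number. It measured 6.83 in male 3, 7.05 in male 4 and 7.08 in female 2 under the middle number, and 6.94 in male 5, 6.89 in male 6 and 6.88 in female 3 under the highest. The 3 animals of the lowest number were above the other 6, whose values ran together. With sex as a covariate, limma's F test gave an unadjusted p of 0.000176, and an adjusted p of 0.29 over all probes, so the difference did not pass. In all, 0 of the 35 tested genes passed the adjusted threshold across title numbers, as did 0% of all probes. At an unadjusted p of 0.05, 5 of the 35 (14.3%) were called, against 9.56% of all probes.

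The other 4 were Neto1, Glrb, Grin2c and Gabra4. Neto1 averaged 6.58 ± 0.09, 6.60 ± 0.17 and 6.27 ± 0.04 (SD, n = 3) under the lowest, middle and highest number, with each of the 3 animals of the highest number below the other 6 (limma adjusted p = 0.41). Glrb averaged 8.09 ± 0.15, 7.93 ± 0.36 and 7.46 ± 0.26 in the same order, and female 3 of the highest number, at 7.76, lay above male 3 of the middle number, at 7.56. Grin2c averaged 7.12 ± 0.06, 6.89 ± 0.15 and 7.24 ± 0.24, and Gabra4 7.09 ± 0.16, 7.17 ± 0.29 and 6.77 ± 0.08. Grik5 had the sixth smallest p (0.077), with averages of 7.32, 7.38 and 7.62. Since dim arrays were spread unevenly over the numbers, the test was repeated with brightness as a covariate. The unadjusted p was then 0.000135 for Neto2, 0.0059 for Neto1, 0.0075 for Glrb, 0.019 for Gabbr1 and 0.045 for Grik1, again 5 genes (8.18% of all probes), and 0.15 for Grin2c and 0.12 for Gabra4.

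**Figure D4:**
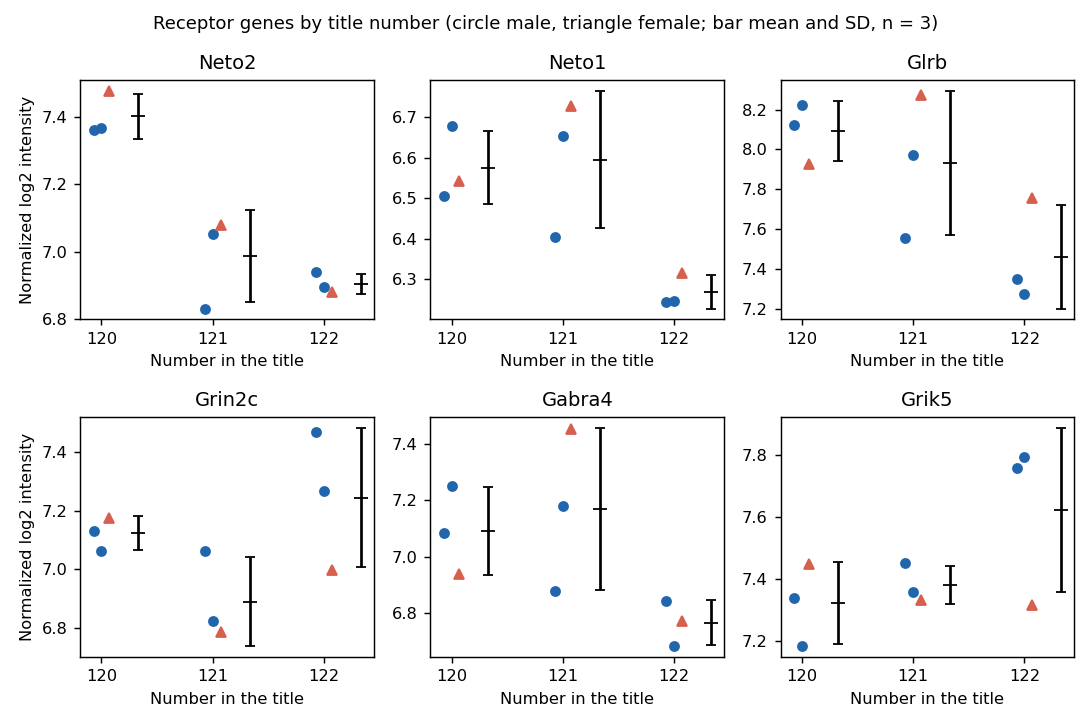
Normalized log2 intensity of the 6 receptor genes with the smallest p across title numbers, for each animal (circle male, triangle female; black bar mean and SD, n = 3), against the number in the sample title. Neto2 is high for the 3 animals of the lowest number and Neto1 low for the 3 of the highest; axes differ between panels.

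Male 5 lay at the edge of the range for several genes, which are named here after their values were seen. It was the highest of the 9 animals for Gabbr1 (8.46, against 7.68 to 8.20 in the other 8), Grik2 (7.34, against 6.73 to 6.95), Grik1, Grin2c (7.47), Grin2b (7.30) and Gabra5 (8.45). It was the lowest for Grin2a (7.80, against 8.10 to 8.45), Gabrd (8.54), Glra1 (5.88), Gabrb2 (6.61), Neto1 (6.24) and the undetected Gabra6. The values of male 1 for Gabrb2 (6.62) and of male 6 for Neto1 (6.25) were nearly as low. How often each animal lay at the edge of the range over all probes was not computed. In male 5 the 5 measured myelin markers summed to 3374, against 7327 to 9334 in the other 8. The 4 excitatory neuron markers summed to 8603, against 10172 to 11565, and this sum is mostly Nrgn. The 4 measured hippocampal markers summed to 479, against 306 to 376. The part of these tissue differences in the receptor values was not tested. Male 6, of the same title number, was highest for Grik5 (7.79), Gabrd (9.31), Grm2 (8.02), Grin1 (10.88), Grm7 (7.30) and Grm4 (6.30). It was lowest for Glrb (7.28), Gria2 (10.91), Gabra4 (6.69), Gabrp (5.97) and Grid2ip (5.81). Male 2 was highest for Gria3, Grik3, Grin2a, Gabrg1 and Gabrr3, and lowest for Grik5, Grid1, Grin1 and Gabbr2.

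Covariation of known partners was examined in 10 pairs of subunits. The other 9 of 19 pairs listed held a gene that was not analysed here. In 7 of the 10 pairs at least 1 gene separated the dim from the brighter arrays, so correlations for these are given within the 6 brighter arrays. There, Gria2 and Gria3 correlated at a Pearson's r of -0.15 and a Spearman's rho of 0.35 (exact permutation p = 0.79 and 0.51, n = 6), Gria2 and Gria4 at -0.22 and -0.12 (exact permutation p = 0.71 and 0.84), and Gabra4 and Gabrd at -0.22 and -0.20 (exact permutation p = 0.69 and 0.71). Grin1 correlated with Grin2a at r = 0.01 and with Grin2b at r = 0.11 (exact permutation p = 0.98 and 0.85), and Gabbr1 with Gabbr2 at r = -0.59 (exact permutation p = 0.22). Grik2 and Neto1 had r = -0.68 and rho = -0.89 (exact permutation p = 0.071 and 0.033; adjusted over 10 pairs, 0.35 and 0.33). The smallest p that 6 arrays can give is 0.0028.

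Over all 9 animals, Grik2 and Grik5, which form one receptor, had r = 0.57 and rho = 0.28 (two-sided exact permutation p = 0.12 and 0.46, n = 9; adjusted over 10 pairs, 0.41 and 0.66). Without the 2 animals farthest from the median of Grik2, males 5 and 1, r was 0.08, so the relation rested on those animals. Both are among the 6 brighter arrays, within which r was 0.76 (exact permutation p = 0.046, adjusted 0.35). Grin2a and Grin2b had r = -0.28 and rho = -0.32 (exact permutation p = 0.45 and 0.41, adjusted 0.57 and 0.66), and -0.20 without the 2 farthest animals. Grik2 and Neto2 had r = -0.35 and rho = -0.23 (exact permutation p = 0.40 and 0.55, adjusted 0.57 and 0.69), and -0.12 without the 2 farthest. Within the 6 brighter arrays these 2 pairs had r = -0.49 and r = -0.37. Of the 10 pairs, 0 passed after adjustment, over 9 arrays or over 6, and for Pearson's r 1 was under an unadjusted p of 0.05 in each.

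Correlations among the 30 genes detected on all arrays had both signs. Their mean pairwise r was 0.04 over 9 arrays and 0.04 over the 6 brighter arrays, against 0.0010 and 0.0014 over 8858 named genes detected on every array. The mean size of r without its sign was 0.38 over 9 arrays, against 0.34 for all these genes, and 0.40 over the 6 brighter arrays, against 0.39. These values are a description, since all genes share the same arrays and their normalization.

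Between the sexes, 0 of the 35 tested receptor genes passed an adjusted p of 0.05 in limma, and 0% of all 18531 probes did. The smallest adjusted p of a receptor gene was 0.9999, and 0 receptor genes were under an unadjusted p of 0.001, the level named in the study's design text. At an unadjusted p of 0.05, 1 of 35 genes (2.86%) was called, against 2.37% of all probes. It was Gabrp, the pi subunit of the GABA-A receptor known mainly from peripheral tissue, a dim probe. Gabrp measured 5.97, 6.01 and 6.09 as lowest, median and highest in the 6 males, and 6.14, 6.10 and 6.21 in females 1, 2 and 3. The sexes did not overlap, and the log2 difference, male minus female, was -0.13 ± 0.05 (SE; limma unadjusted p = 0.021). Without female 3 the difference was -0.10, Gabrp was no longer under an unadjusted p of 0.05, and Grm2 was the 1 gene that was.

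Of the 35 genes, 19 averaged higher and 16 lower in males, with a median log2 difference of 0.009 against -0.0004 over all probes. The genes with the next smallest p did not pass. Grik1 averaged 7.03 ± 0.12 (SD, n = 6) in males and 6.91 ± 0.04 (SD, n = 3) in females. Grm2, a presynaptic inhibitory receptor, averaged 7.68 ± 0.19 in males and 7.48 ± 0.22 in females, where female 1 (7.23) was the lowest of all 9 animals. Grik4 averaged 5.96 ± 0.08 in males and 6.05 ± 0.03 in females, and Grin2a 8.17 ± 0.23 and 8.35 ± 0.07. Gabbr1 averaged 8.04 ± 0.29 in males and 7.84 ± 0.03 in females, with males 5, 6 and 2 the highest at 8.46, 8.20 and 8.17. Without overlap between the sexes were 2 of the 35 genes (5.71%), against 1.5% of all tested probes. Beside Gabrp this was Grin3b (6.10 to 6.22 in males and 6.07 to 6.09 in females), with a difference of 0.06 ± 0.04 (SE).

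**Figure D5:**
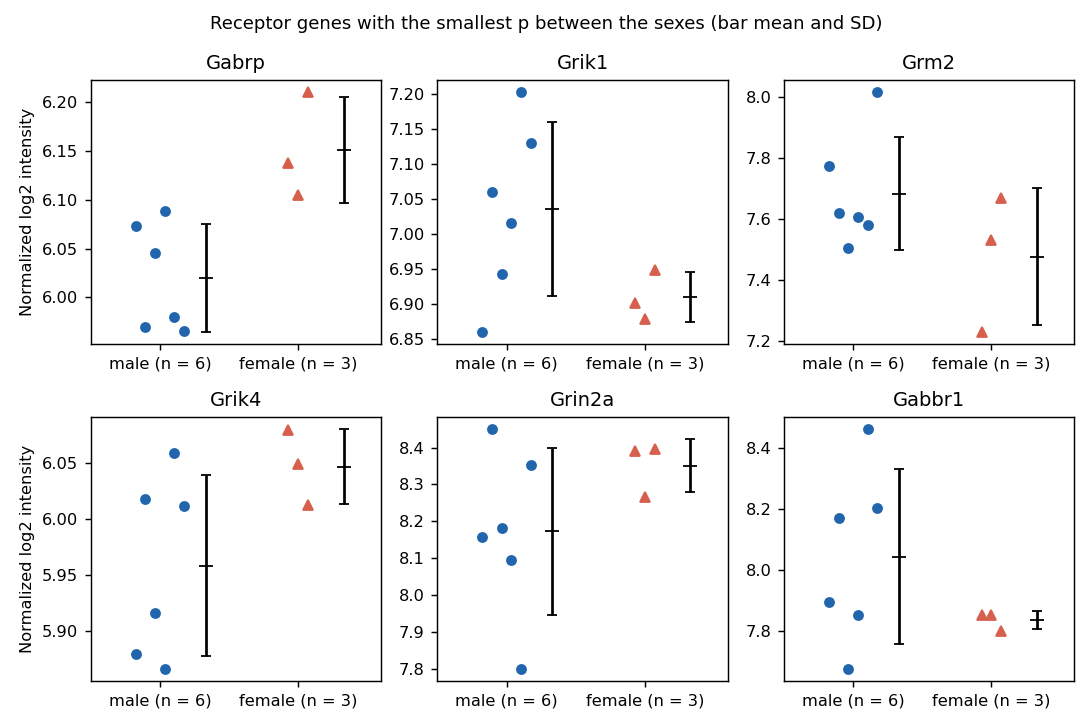
Normalized log2 intensity of the 6 receptor genes with the smallest p between the sexes, males left and females right (points animals, black bar mean and SD). Gabrp is lower in the 6 males than in the 3 females without overlap, and the other 5 genes overlap; axes differ between panels.

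Genes that serve these receptors were counted from a list of 56 auxiliary subunits, scaffolds, transporters and enzymes, of which 37 were tested. On the dim arrays 0 were higher and 4 lower at an adjusted p under 0.05 (10.8%, against 8.72% of all probes), with a median difference of -0.05. The share called is near that over all probes. The 4 were Olfm1, Cnih2, Cacng8 and Pick1, and the auxiliary subunits on the list were mostly those of AMPA receptors. Olfm1, a secreted protein found with AMPA receptors, averaged 12.09 ± 0.06 (SD, n = 3) on the dim arrays and 12.53 ± 0.10 (SD, n = 6) on the brighter ones. Cnih2, a cornichon that aids receptor export, averaged 8.05 ± 0.16 and 8.54 ± 0.20. Cacng8, a transmembrane regulatory protein, averaged 5.95 ± 0.08 and 6.23 ± 0.13, on the dim arrays near the 25th percentile of all probes (5.91). Pick1, which binds the tail of the Gria2 product, averaged 7.53 ± 0.06 and 7.86 ± 0.14. Across title numbers 0 of 37 passed and 5 of 37 were under an unadjusted p of 0.05, against 9.56% of all probes, with Dlg1 (8.41, 8.17 and 8.08 under the lowest, middle and highest number), the chloride exporter Slc12a5 (10.63, 10.48 and 10.83) and Grip1 (6.44, 6.38 and 6.63) having the smallest p. Between the sexes 0 passed and 2 of 37 were under 0.05, against 2.37% of all probes: the GABA breakdown enzyme Aldh5a1 (-0.22 ± 0.05, SE, male minus female) and the transporter Slc1a6 (-0.11 ± 0.05), followed by the GABA-synthesizing enzyme Gad1 (-0.14 ± 0.08).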

How the data were processed

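The authors deposited, for each of 9 arrays, one linear probe intensity for each of 22517 probes, which the values show to be unscaled between arrays and without background subtraction; biotin-labelled cRNA on Illumina rat bead arrays was measured, per the labels' protocols. The authors also deposited a series table of log2 values for 15912 probes, quantile-normalized from the values, used as an alternative. For the scanner software, nothing is stated. Intensities were corrected with normexp (offset 50), transformed to log2 and quantile-normalized in limma 3.58.1 (R 4.3.3). Probes above their array's 25th percentile on at least 3 arrays (18531) were fitted together, with Benjamini-Hochberg adjustment. Symbols came from the platform annotation (10687 named probes). Replicates are animals, whose number limits precision. Every array is a different animal, so the variation against which differences were tested holds that of animals and arrays together. The limma procedure was run on simulated data with independent noise for each probe. Such data lack the differences that probes of an array share, so they cannot decide how the tests behave here. Members and lists were chosen with earlier results of these data known, and the brightness comparison was added after seeing the data. Named genes were those with the smallest p by sex or title number (6 each), the 8 largest SDs within sex, partner pairs, and genes with an outlying male, many probes or no detection; the genes called by brightness and other members were named as members. Alternatives were a background floor of 64, no normalization, scaling to the 75th percentile, other filters, array weights, an intensity trend, title number or brightness as a term, and leaving out arrays.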

Additional observations from a re-analysis of the deposited data

Results flagged for a closer look

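In 5 of the 35 tested receptor genes the highest or lowest of the 6 males stood apart from the others by a share of the males' whole range above Dixon's 95% critical value. These were 14.3% of the receptor genes, against 5.40% of all tested probes by the same measure, and about 1 in 20 genes is picked out in this way by chance. Grik2 was highest in male 5 (7.34 log2 units, against 6.95 or below in the other males), with a gap of 0.635 of the range. Grm5 was lowest in male 3 (6.41, gap 0.673), as was Grin2b (6.84, gap 0.627). The dim probes of Grm4, highest in male 6 (6.30, gap 0.655), and Grid1, lowest in male 2 (5.83, gap 0.637), also stood out. Male 3 was the animal with the highest summed level of choroid plexus markers and male 5 that with the lowest of myelin markers; the part of either in these values was not tested.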

How the results depend on the processing

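Across 20 alternatives for sex and 19 for title number, 0 receptor genes passed an adjusted p of 0.05. At an unadjusted p of 0.05 between the sexes, the 1 gene became 0 with a background floor of 64 (where Gabrp and Grik4 lay at the floor and had no value) and with scaling to the 75th percentile, and 2 with brightness as a covariate (Gabrb2 and Gabrp); leaving out each animal gave 1 to 2, with Grm2 in place of Gabrp without female 3. Across title numbers the 5 genes became 1 (Neto2) with the floor, 10 with scaling to the 75th percentile and 10 with array weights, and 3 to 8 when animals were left out (8 without male 3, 3 without male 4 or male 6); Neto2 kept an unadjusted p of 0.0032 or below throughout. The 7 genes that differed by brightness became 3 with the floor (Gria2, Grin1 and Gabrb2), 16 with scaling to the 75th percentile, where the median of all probes moved by 0.14 and 44.9% of them passed, and 4 with title number as a covariate; leaving out arrays gave 3 to 9. The split of the 7 genes by direction is given with the result, and the sign of each of the 7 differences was the same under all 18 alternatives. Of the partner pairs, 0 became 1 with no normalization (Grik2 with Grik5) and 1 on residuals from the title number means (Gria2 with Gria3), and 0 to 1 when animals were left out. The mean pairwise r of 0.04 was 0.12 with no normalization and 0.075 on residuals from the title number means, and 0.02 to 0.05 when animals were left out. The causes were not tested. Agreement between probes of a gene could not be computed, since both Grik5 probes held the same values. In a paired fit with title number as a block (1 female and 2 males each), 1 gene, again Gabrp, was under an unadjusted p of 0.05 between the sexes, and 0 passed after adjustment. Depth here is brightness over background: the 11 dim genes allow small differences to go undetected.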
